A study of Mus musculus with 16 samples.

Results

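The regions described here are ordinary H3K4me3 domains without either of the other marks that the study mapped. They were chosen by width and by overlap from the list of 26654 H3K4me3 regions of immortalized mouse embryonic fibroblasts: a region of 2000 to 6900 bp was taken when it shared no base with any region of the succinyllysine list or of the H3K27me3 list. The rule gave 9096 regions, 34.1% of the H3K4me3 list and 90.3% of the 10076 H3K4me3 regions in that width range. They are called chosen regions below. The comparison regions are the 815 H3K4me3 regions of the same widths that touched succinyllysine, of which 34 also touched H3K27me3. A further 165 regions of these widths touched H3K27me3 alone.

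The study used chromatin immunoprecipitation followed by sequencing (ChIP-seq) on immortalized fibroblast lines labelled R26M2rtTA/+;TetOcre;Sdhcfl/fl (2 floxed copies of Sdhc) and R26M2rtTA/+;TetOcre;Sdhcfl/wt (1 floxed and 1 wild-type copy). Both lines carried the doxycycline-driven Cre, both received doxycycline at 1 µg/mL, and both were sampled at day 16, so the control cells were also exposed to Cre and to the drug. Each line gave 2 samples per antibody (succinyllysine, H3K4me3 and H3K27me3) and 2 of input chromatin, 16 samples in all. The deposited lists give 1 set of positions per antibody, with no height, no read depth and no statement of how its 4 samples entered it, so the 2 lines cannot be compared, and no measure of spread between samples exists for any value below.

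H3K4me3 is trimethylated lysine 4 of histone H3, laid down around the start of transcribed genes by the COMPASS family of methyltransferases, and its usual sites are CpG-rich promoters. H3K27me3 is the product of Polycomb repressive complex PRC2 and covers silenced developmental genes. Succinyllysine is lysine acylated from succinyl-CoA; succinate dehydrogenase, of which Sdhc encodes a membrane anchor, oxidises the succinate that the tricarboxylic acid cycle makes from succinyl-CoA. A chosen region is therefore a promoter-sized H3K4me3 domain with no called Polycomb mark and no called succinyllysine.

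The promoters that follow show what lies under such domains. Each is the 250 bases before the annotated start, written 5′ to 3′ on the strand of the gene, from RefSeq on GRCm38.p6 (the assembly of mm10). Capitals mark matches on either strand to the GC box bound by Sp1-family factors (GGGCGG), the CCAAT box bound by NF-Y, the ETS site (CCGGAAGT) or the NRF1 half-palindrome (GCATGCGC), and TATAA on the gene's own strand where its first base lies 40 to 20 bp before the start. The first 5 lie at chosen regions and were picked, after the values were seen, to span the range of composition. Sdhb (the iron-sulfur subunit of succinate dehydrogenase, chr4:140961021-140961270, plus strand) and Mrpl51 (a mitochondrial ribosomal protein, chr6:125191950-125192199, plus strand) stand for the CpG-containing promoters of cell machinery. Btg1 (an antiproliferative gene, chr10:96616751-96617000, plus strand) is shown for its TATA box, Cd44 (the hyaluronan receptor, chr2:102901666-102901915, minus strand) for its lack of every marked motif, and Btg2 (a relative of Btg1, chr1:134079156-134079405, minus strand) because the window runs out of H3K4me3 and into a neighbouring succinyllysine region.
Sdhb: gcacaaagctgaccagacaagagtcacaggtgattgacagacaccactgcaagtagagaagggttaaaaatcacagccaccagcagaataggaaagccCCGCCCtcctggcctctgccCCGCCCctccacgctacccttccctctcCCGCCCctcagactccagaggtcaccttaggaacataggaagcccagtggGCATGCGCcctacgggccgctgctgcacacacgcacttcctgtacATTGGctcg
Mrpl51: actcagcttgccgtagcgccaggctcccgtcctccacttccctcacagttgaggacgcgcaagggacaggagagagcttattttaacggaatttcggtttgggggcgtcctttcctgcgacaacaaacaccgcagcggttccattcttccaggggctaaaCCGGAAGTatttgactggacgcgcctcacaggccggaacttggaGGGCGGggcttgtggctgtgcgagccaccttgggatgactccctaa
Btg1: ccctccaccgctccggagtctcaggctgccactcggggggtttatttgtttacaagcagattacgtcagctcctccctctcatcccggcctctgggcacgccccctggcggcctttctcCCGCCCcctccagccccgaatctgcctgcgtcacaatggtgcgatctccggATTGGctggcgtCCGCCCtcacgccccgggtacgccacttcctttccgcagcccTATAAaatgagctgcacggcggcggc
Cd44: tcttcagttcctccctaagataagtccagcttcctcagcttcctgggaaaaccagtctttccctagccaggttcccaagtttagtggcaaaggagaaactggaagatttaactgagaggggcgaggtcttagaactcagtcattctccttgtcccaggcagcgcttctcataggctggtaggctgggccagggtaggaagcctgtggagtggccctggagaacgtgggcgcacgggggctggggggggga
Btg2: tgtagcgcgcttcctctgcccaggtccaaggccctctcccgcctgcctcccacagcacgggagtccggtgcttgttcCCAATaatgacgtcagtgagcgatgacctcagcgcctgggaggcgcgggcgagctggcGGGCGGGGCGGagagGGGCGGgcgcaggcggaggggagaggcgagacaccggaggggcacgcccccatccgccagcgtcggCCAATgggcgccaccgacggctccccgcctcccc
The next 3 lie at comparison regions: Fos (a subunit of the AP-1 transcription factor, chr12:85473640-85473889, plus strand), Cdt1 (the replication licensing factor, chr8:122567765-122568014, plus strand) and S100a4 (a calcium-binding protein of fibroblasts, chr3:90603520-90603769, plus strand).
Fos: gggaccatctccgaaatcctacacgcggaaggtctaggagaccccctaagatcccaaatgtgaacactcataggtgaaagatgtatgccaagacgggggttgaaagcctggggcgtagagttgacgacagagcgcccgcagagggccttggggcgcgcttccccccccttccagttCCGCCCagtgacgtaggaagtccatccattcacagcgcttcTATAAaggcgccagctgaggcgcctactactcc
Cdt1: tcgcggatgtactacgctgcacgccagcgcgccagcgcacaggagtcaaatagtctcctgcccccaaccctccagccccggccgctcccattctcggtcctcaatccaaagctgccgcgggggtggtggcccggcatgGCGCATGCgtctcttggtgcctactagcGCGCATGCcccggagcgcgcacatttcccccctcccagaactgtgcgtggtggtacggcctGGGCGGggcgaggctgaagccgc
S100a4: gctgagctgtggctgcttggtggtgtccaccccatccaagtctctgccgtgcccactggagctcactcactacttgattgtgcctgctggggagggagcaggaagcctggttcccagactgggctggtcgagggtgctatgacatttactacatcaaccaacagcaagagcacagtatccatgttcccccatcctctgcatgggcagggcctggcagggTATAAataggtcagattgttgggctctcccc
Over the 300-base windows of the reference table (250 bases before and 50 after the start), the ratio of observed to expected CpG was 0.571 for Sdhb, 0.722 for Mrpl51, 0.833 for Btg1, 0.246 for Cd44 and 0.827 for Btg2. At the comparison regions it was 0.775 for Fos, 0.965 for Cdt1 and 0.0871 for S100a4. Both classes thus held CpG-rich and CpG-poor promoters, TATA-containing promoters and promoters with an NRF1 match.

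The chosen regions had a median width of 3500 bp, with quartiles of 2800 and 4400 bp, and together covered 33.3 Mb. The comparison regions were wider, with a median of 3900 bp and quartiles of 2900 and 5000 bp. Width was part of the rule, so these values only describe the classes. Positions stand on a grid of 100 bp. At the lower limit, 253 of the 286 regions of exactly 2000 bp had neither other mark, and so did 249 of the 291 regions of 1900 bp that the rule left out. At the upper limit, neither mark was present at 27 of 33 regions of 6900 bp and at 20 of 23 regions of 7000 bp. Within the range, the share of H3K4me3 regions that touched succinyllysine was 6.66% at 2000 to 2900 bp, 6.34% at 3000 to 3900 bp, 9.02% at 4000 to 4900 bp, 11.6% at 5000 to 5900 bp and 17.3% at 6000 to 6900 bp.

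Most chosen regions lay at the start of a gene. A protein-coding start, or the stand-in used for genes without a start in the reference table, lay in 8112 of 9096 chosen regions, or 89.2% (exact 95% interval 88.5 to 89.8; all intervals here are Clopper-Pearson intervals and cover counting error only). The same held for 610 of 815 comparison regions, or 74.8% (71.7 to 77.8). Annotated starts alone accounted for 73.7% of chosen and 62.9% of comparison regions; the remainder rested on outer gene ends with 1000 bp on each side. Another 630 chosen regions (6.93%) lay inside a gene and 354 (3.89%) between genes, against 91 and 114 of the 815 comparison regions. A start of a long noncoding RNA (lncRNA) lay in 10.3% (9.69 to 11.0) of chosen and 8.83% (6.98 to 11.0) of comparison regions.

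The difference in gene starts held in every width class, and was widest among the narrowest regions. At 2000 to 2900 bp a start or stand-in lay in 81.1% of chosen and 51.2% of comparison regions, and 7.50% against 32.2% lay between genes. From 4000 to 4900 bp the shares with a start were 94.1% and 84.1%, and at 6000 to 6900 bp 95.2% and 84.5%. At 5000 to 5900 bp the shares were 94.2% (92.5 to 95.6) and 87.2% (80.0 to 92.5), whose intervals all but met; in the other classes the intervals of chosen and comparison regions lay farther apart.

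**Figure D1:**
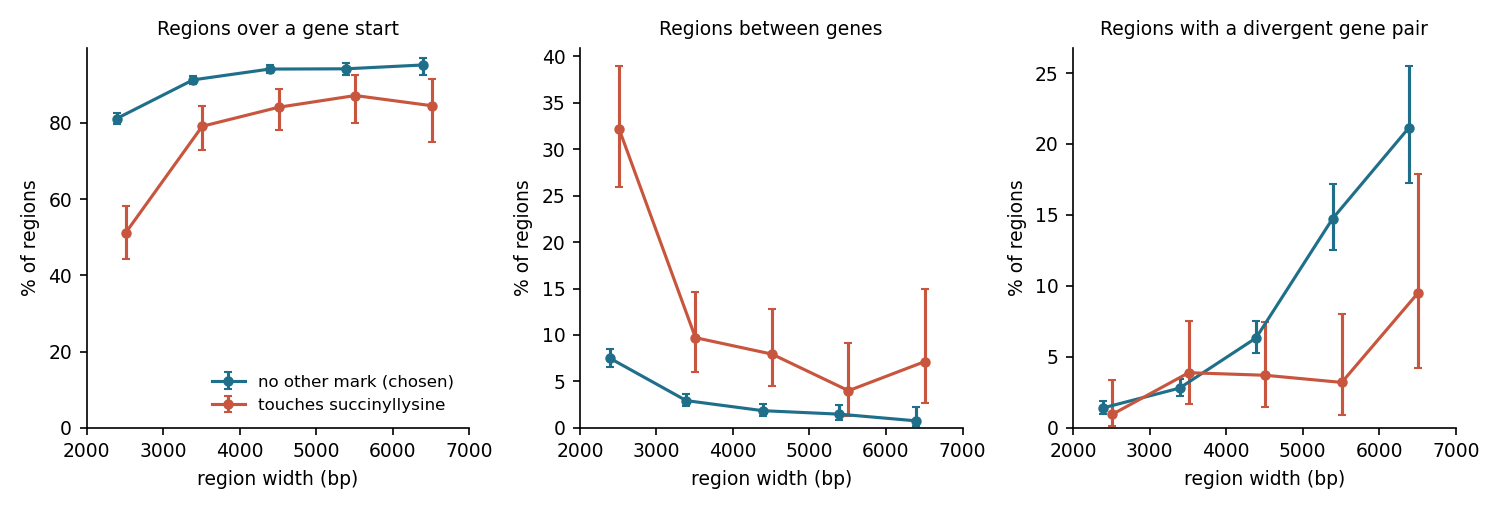
Share of regions over a protein-coding start or its stand-in (left), between genes (middle) and with a divergent gene pair (right), in % of regions, by region width in bp. Points are 1000 bp width classes of chosen regions (blue) and of same-width regions that touch succinyllysine (red), and bars are exact 95% intervals; chosen regions have the higher share over a start in each class, and their divergent pairs go from 1.40% to 21.2%.

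Some chosen regions lay over divergent promoters, where 2 genes on opposite strands start within 1000 bp of each other and point apart. Such a pair was held by 468 chosen regions, or 5.15% (4.70 to 5.62), and by 29 comparison regions, or 3.56% (2.40 to 5.07). Regions with the starts of 2 or more genes of any orientation made up 6.59% and 6.01%. Among chosen regions the share with a divergent pair was 1.40% at 2000 to 2900 bp, 2.80% at 3000 to 3900 bp, 6.33% at 4000 to 4900 bp, 14.7% at 5000 to 5900 bp and 21.2% at 6000 to 6900 bp. Comparison regions had 0.948%, 3.88%, 3.70%, 3.20% and 9.52% in the same classes. At 5000 to 5900 bp the intervals did not overlap (12.5 to 17.2 against 0.879 to 7.99); at 6000 to 6900 bp they did (17.2 to 25.5 against 4.20 to 17.9).

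The 2 starts of a pair in a chosen region lay a median of 114 bp apart, with quartiles of 61 and 216 bp. These regions had a median width of 4900 bp, against 3500 bp for chosen regions with the start of a single gene. In the comparison class the starts lay 225 bp apart and the regions were 4200 bp wide at the median, over 29 pairs. Both genes were in the gene lists used below in 17 of the 468 pairs, and in 7 of these both were in the same list: 4 pairs of histone genes, 2 of Zfp zinc finger genes and 1 of mitochondrial ribosomal proteins. Mrpl46 and Mrps11, which encode mitochondrial ribosomal proteins, started 42 bp apart in a region of 5200 bp. Mrps12 and Sars2, the mitochondrial seryl-tRNA synthetase, started 147 bp apart in 3300 bp. Rps28 and Ndufa7 paired a cytosolic ribosomal protein with a subunit of respiratory complex I, 10 bp apart in 5600 bp. Mrpl32 and Psma2 paired a mitochondrial ribosomal protein with a proteasome subunit, 205 bp apart in 3400 bp. The 4 histone pairs were on chromosome 13: H2bc13 with H2ac13, H2ac15 with H2bc15, H2ac12 with H2bc12 and H2bc7 with H2ac7. They started 164 to 229 bp apart in regions of 3000 to 4000 bp.

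The starts of 3 genes were held by 10 chosen regions. The widest of these, of 6600 bp, held Gm36712, Gart (an enzyme of purine synthesis) and Son (a splicing cofactor). Another of 6500 bp held Shld3, Trappc13 and Trim23, and one of 5800 bp held Ak6, Taf9 (a subunit of TFIID) and Rad17 (a checkpoint clamp loader). The 5 genes first in order at the upper limit of 6900 bp were 0610012G03Rik, 1110059E24Rik, Abhd17b, Adamts5 (an aggrecan-cleaving protease) and Arl16.

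Chosen regions sat asymmetrically on the start and reached mainly into the gene. Among 4594 chosen regions with 1 protein-coding start and no lncRNA start, the median reach was 795.5 bp upstream and 2600 bp downstream, and 95.6% extended farther downstream than upstream. Upstream quartiles were 385 and 1190 bp, and downstream quartiles 2076 and 3203 bp. With width the upstream median went from 540 bp at 2000 to 2900 bp to 1782 bp at 6000 to 6900 bp, and the downstream median from 1957 to 4534 bp. In 572 chosen regions that also held a lncRNA start, the upstream median was 1097.5 bp and the downstream median 2716.5 bp. The 331 comparison regions with 1 protein-coding start and no lncRNA start reached 987 bp upstream and 2941 bp downstream. Of these, 94.3% (91.2 to 96.5) extended farther downstream, so both classes shared the asymmetry. A point 1000 bp upstream of the start was covered by 36.0% of chosen and 49.2% of comparison regions, and a point 3000 bp downstream by 32.7% and 46.2%. The comparison regions are wider, and at matched width the longer reach did not hold throughout. Downstream, the chosen median was the longer at 2000 to 2900 bp (1957 against 1893.5 bp), at 3000 to 3900 bp (2645 against 2607 bp) and at 4000 to 4900 bp (3234.5 against 3164 bp), and the shorter in the 2 widest classes (3905 against 4062 bp and 4534 against 5066 bp). Upstream, it was the shorter in the first 3 classes (540 against 624.5, 765.5 against 892 and 1120 against 1135 bp) and the longer in the 2 widest (1465.5 against 1357.5 and 1782 against 1427.5 bp).

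**Figure D2:**
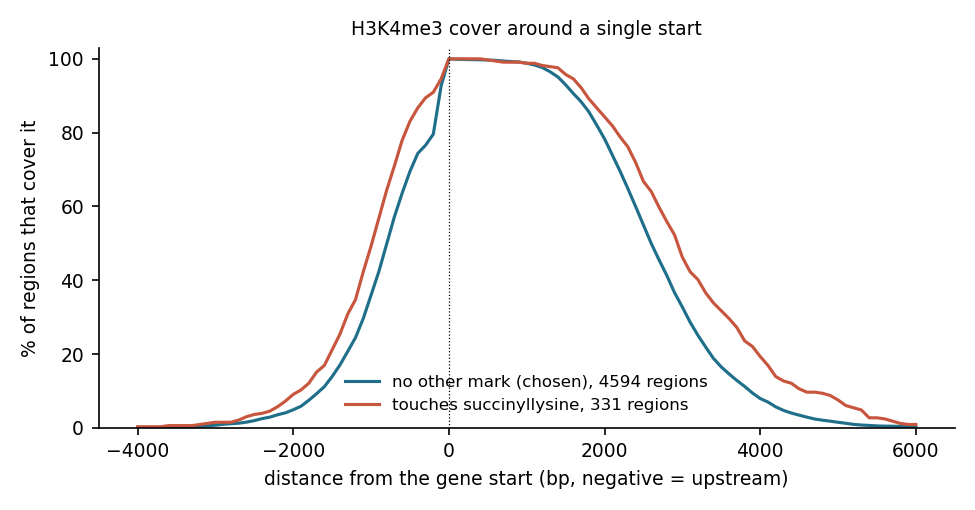
Share of regions (in %) that cover each distance from the gene start (in bp, negative upstream), for 4594 chosen regions (blue) and 331 same-width regions that touch succinyllysine (red), all with 1 protein-coding start and no lncRNA start. Both curves fall off faster upstream than downstream, and at 1000 bp upstream the chosen regions stand at 36.0% and the others, which are wider at the median, at 49.2%.

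Of the 21887 protein-coding genes, 8820 (40.3%) had a chosen region as the widest H3K4me3 region at their start, 7156 by an annotated start and 1664 by an outer end. A same-width region with succinyllysine served 662 genes (3.02%), a wider region 552 and a narrower region 1724, and 10013 genes had no H3K4me3 region there. Chosen regions therefore served 74.3% of the 11874 genes with any H3K4me3 at the start. Of the 9482 genes at a chosen or a comparison region, 93.0% were at a chosen region. These percentages are the background for the gene lists below. The 40.3% also counts the genes with no H3K4me3 region, so a list can pass it by holding few such genes. List counts are descriptions, and no list was tested.

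All 4 genes of succinate dehydrogenase had H3K4me3 regions in the chosen width range, and Sdhc alone touched succinyllysine. The region of Sdha, the flavoprotein subunit (chr13:74347501-74352900), was 5400 bp wide and reached 2660 bp upstream, over the start of Ccdc127, which lay 77 bp away on the other strand. The nearest succinyllysine region was 101700 bp away. Sdhb, whose promoter is printed above, had 3300 bp (chr4:140960401-140963700), with 870 bp upstream, 2430 bp downstream and 259100 bp to the nearest succinyllysine. Sdhd, a membrane anchor (chr9:50601101-50606300), had 5200 bp and shared the region with Timm8b, an import chaperone of mitochondria that starts 52 bp away. At Sdhc, the other anchor and the gene floxed in these lines, the region of 4000 bp (chr1:171147801-171151800) touched a succinyllysine region of 900 bp. Sdhc has no start in the reference table, so its region was assigned by the outer end of the gene, unlike those of the other subunits. The 4 assembly factors Sdhaf1, Sdhaf2, Sdhaf3 and Sdhaf4 all had chosen regions, of 2300, 5400, 2800 and 2100 bp. Chosen regions thus lay at 7 of these 8 genes, or 87.5% (47.3 to 99.7), beside 93.0% of all genes at either class.

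The neighbouring pathways were also mostly at chosen regions. Of 28 genes of the tricarboxylic acid cycle and pyruvate entry, 22 (78.6%) had a chosen region, among them Ogdh and Dlst of the complex that makes succinyl-CoA (2800 and 5100 bp), Sucla2 and Suclg1 of the ligase that uses it (2900 and 3600 bp), and Fh1, fumarase (2800 bp). Mpc2, a pyruvate carrier subunit, had the narrowest at 2600 bp, tied with other genes. Succinyllysine was touched at Dld, the lipoamide dehydrogenase shared by these complexes, and at Pdha1 of pyruvate dehydrogenase. Of the 24 genes of this list at either class, 91.7% (73.0 to 99.0) were thus at a chosen region, close to the 93.0% of all genes. Respiratory complex I had chosen regions at 33 of 37 genes (89.2%), the complexes III, IV and ATP synthase at 34 of 44 (77.3%), and neither list had a comparison region. The widest chosen region of complex I was 6300 bp at Ndufs3, a core subunit. In the complexes III, IV and ATP synthase, widths ran from 2200 bp at Cox6b1 to 6600 bp at Atp5c1, the gamma subunit of ATP synthase. Mitochondrial ribosomal proteins had 67 chosen regions at 78 genes (85.9%), from 2200 bp at Mrpl42 to 6900 bp at Mrpl37, with comparison regions at 2 genes, including Mrpl33, where succinyllysine was 3300 bp wide.

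Most genes of broadly used cell machinery had a chosen region. In all 23 lists of broadly used machinery the share at a chosen region was above the 40.3% of all genes, from 59.3% to 89.6%. Together, 1181 of 1596 such genes (74.0%, 71.8 to 76.1) had a chosen region and 97 (6.08%) a comparison region. The largest list of this pool is the 397 Zfp zinc finger genes, of KRAB type and others. Of these, 66 had a region under 2000 bp and 60 had none. The proteasome had the highest share, 43 of 48 genes (89.6%), with no comparison region; Psma5 at 6700 bp and Psmb3 at 2200 bp, both of the 20S core, were its widest and narrowest. Respiratory complex I (89.2%) came next, and then DNA replication with 41 of 46 genes (89.1%), from Rpa3 of the single-strand binding complex (2000 bp) to Orc6 of the origin recognition complex (6800 bp). The RNA exosome and mRNA decay list had 35 of 40 genes, the vesicle coats of COPI, COPII and ESCRT 59 of 70, RNA polymerase II with Mediator 71 of 86, and DNA repair 50 of 62. Chromatin modifiers had 77 of 106 genes, among them Kmt2a, itself an H3K4 methyltransferase, at 6800 bp. The lowest shares in this group were 48 of 81 cullin-ligase and ubiquitin-conjugating genes and 249 of 397 Zfp zinc finger genes.

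Set against the comparison regions alone, the machinery genes stood close to the background. Of machinery genes at either class, 92.4% (90.8 to 93.8) were at a chosen region, beside 93.0% of all genes at either. Of the aminoacyl-tRNA synthetases, which charge tRNAs with their amino acids, 36 were at either class. Chosen regions lay at 30 of these, or 83.3% (67.2 to 93.6), an interval that includes the 93.0%. All 6 members with a comparison region, Aars, Eprs, Gars, Mars1, Sars and Vars, were among the 20 synthetase genes outside the mitochondrial series, and 14 of those 20 had chosen regions. Of the 17 genes of the mitochondrial series (symbols ending in ars2), 14 had chosen regions and 0 a comparison region. Over all genes the share at a comparison region was 3.02%, so few would be found among 17. This split was noticed after the values were seen and was not tested. Kars, at 6800 bp, had the widest chosen region of the list and Cars2, at 2300 bp, the narrowest.

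**Figure D3:**
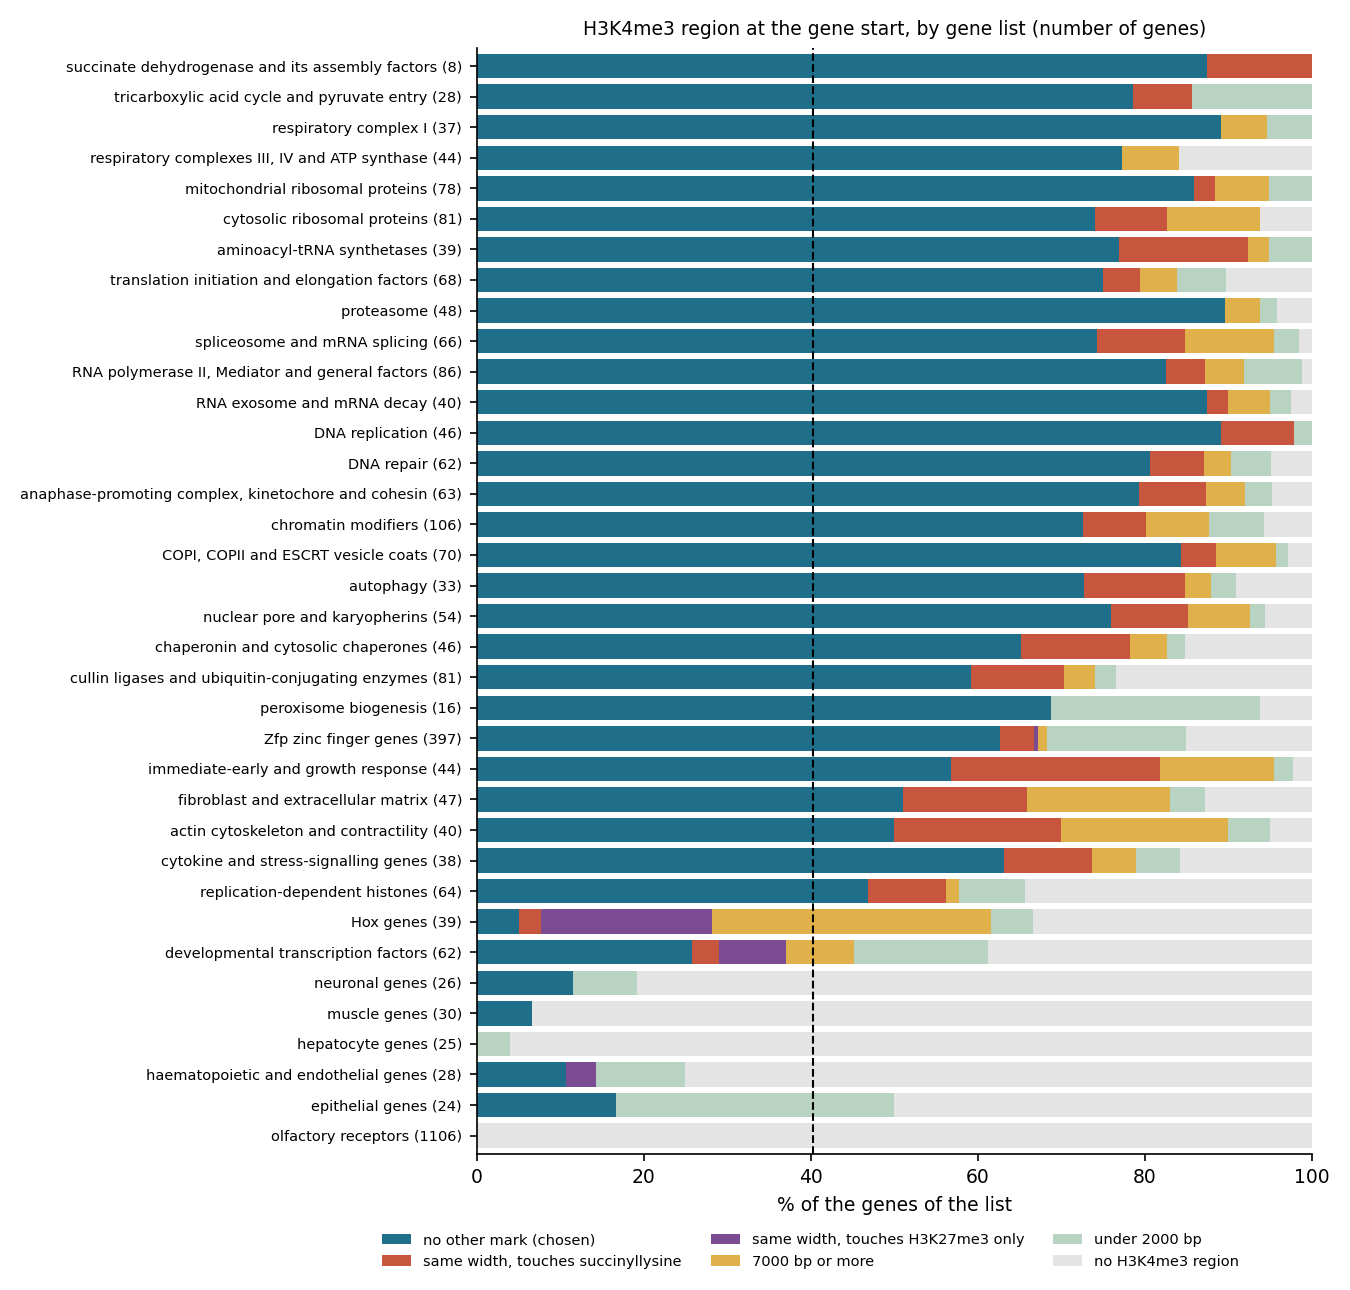
Share of the genes of each list (in %, number of genes in brackets) by the H3K4me3 region at their start: chosen (blue), same width touching succinyllysine (red), same width touching H3K27me3 alone (purple), 7000 bp or more (yellow), under 2000 bp (pale green) or none (grey). The dashed line is the 40.3% of all protein-coding genes at a chosen region. It counts genes with no H3K4me3 region, and over genes with any such region the share is 74.3%. A list can pass the line and still stand under that share. The 23 machinery lists at the top pass the line, as do the 5 fibroblast and inducible lists, which include the histone genes. The 8 lists of developmental genes and other cell types at the bottom do not.

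Fibroblast and inducible genes were divided among the chosen, comparison and wider regions. One of the 5 lists of this group holds the 64 replication-dependent histone genes, of which 30 had a chosen region. Over the 5 lists, 123 of 233 genes (52.8%, 46.2 to 59.3) had a chosen region and 36 (15.5%) a comparison region. Over all genes these shares were 40.3% and 3.02%, and over genes with any H3K4me3 region they were 74.3% and 5.58%. Of the listed genes at either class, 77.4% (70.1 to 83.6) were at a chosen region, and each of the 5 lists stood below the background of 93.0%. Regions of 7000 bp or more lay at 8 of 47 matrix, 8 of 40 actin and 6 of 44 immediate-early genes. They lay at 2 of 38 cytokine and stress genes and 1 of 64 histone genes, beside 2.52% of all genes. No H3K4me3 region lay at 1 of 44 immediate-early, 2 of 40 actin and 6 of 47 matrix genes. The same held for 6 of 38 cytokine and stress genes and 22 of 64 histone genes. The matrix list, used here as the marker list of the labelled fibroblasts, had 24 of 47 genes at chosen regions. These included Pdgfra and Pdgfrb, receptors that mark fibroblasts (5600 and 4000 bp), Col3a1 (3300 bp), and Cd44 as the widest and Fbln1, a matrix glycoprotein, as the narrowest (6900 and 2000 bp). Comparison regions lay at 7 others, S100a4 with the widest succinyllysine region (8000 bp) and also Fn1, Vim, Lox, Loxl1, Serpinh1 and Col1a2. Not every matrix gene was marked: beside the 6 with no H3K4me3 region, 2 had a region under 2000 bp. Actin and contractility genes had 20 of 40 chosen regions, Tpm3 at 6700 bp and Myl9 at 2000 bp as the extremes, and 8 comparison regions, including both cytoplasmic actins, Actb and Actg1.

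Immediate-early genes, which growth factors induce within minutes, fell in both classes. Chosen regions lay at 25 of 44 genes and comparison regions at 11, so 69.4% (51.9 to 83.7) of those at either class were chosen. Within the AP-1 family, Jun (4100 bp), Junb (4600 bp) and Fosb (3600 bp) had chosen regions and Fos (4200 bp) a comparison region with 2900 bp of succinyllysine. The Egr zinc finger genes Egr1, Egr2 and Egr3 had chosen regions of 5700, 4400 and 5800 bp, with the nearest succinyllysine 88300 to 466300 bp away. Dusp1, Ier3, Ptgs2, Nr4a2 and Nr4a3 had comparison regions, and Mafk had the widest succinyllysine of the list at 3500 bp. Btg1 had the widest chosen region, 6800 bp, of which 100 bp lay upstream of the start, and Tob1, of the same antiproliferative family, the narrowest at 2700 bp. Of the cytokine and stress genes, 24 of 38 had chosen regions, among them Hmox1, Hif1a and the NF-kB subunits Rela and Nfkb1, and 4 had comparison regions, Atf4, Bbc3, Trp53 and Vegfa.

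Genes of other cell types and of development were rarely at chosen regions. Over 8 lists, 30 of 1340 genes (2.24%) had one, and no list passed the background of 40.3%. Olfactory receptors made up 1106 of these genes; over the other 7 lists it was 30 of 234 (12.8%, 8.82 to 17.8). Hepatocyte genes had 0 of 25 and olfactory receptors 0 of 1106, which allows a share of up to 0.333% by the exact interval. Muscle genes had 2 of 30 (Actn3 and Mef2c), neuronal genes 3 of 26 (Dlg4, Stmn2 and Tubb3), haematopoietic and endothelial genes 3 of 28 (Cd14, Cd34 and Kdr) and epithelial genes 4 of 24 (Cdh3, Ppl, Grhl1 and Esrp2). No H3K4me3 region lay at the start of 24 hepatocyte, 28 muscle, 21 neuronal, 21 haematopoietic and endothelial and 12 epithelial genes. Ptprc, Pecam1, Myog and Krt8 were among these. Regions under 2000 bp lay at 8 epithelial, 3 haematopoietic and endothelial, 2 neuronal and 1 hepatocyte genes. Developmental transcription factors had 16 of 62, with Lhx9 the widest at 6700 bp and Dlx5 the narrowest at 2400 bp. Only 2 of 39 Hox genes had a chosen region, Hoxa13 (4800 bp) and Hoxa4 (4400 bp), while 13 lay in wider regions and 8 in same-width regions with H3K27me3 alone.

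Most chosen regions lay 10000 bp or more from the other marks, but a minority stopped just short of succinyllysine. The median distance to the nearest succinyllysine region was 185 kb (quartiles 66.1 and 408 kb) and to the nearest H3K27me3 region 96.8 kb (34.5 and 223 kb). The succinyllysine list holds 10888 regions and the H3K27me3 list 98342, and no background distance is given here. Succinyllysine lay under 1000 bp from 193 chosen regions (2.12%), in 24 of them with no base between, and H3K27me3 lay as close to 71. In 135 of the 193 the gap was 300 bp or less. These regions lie nearest to the boundary of the rule.

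In these regions succinyllysine lay almost always on the upstream side. Of 113 with a single protein-coding start, 105 had it upstream, 8 downstream and 0 on both sides. The H3K4me3 region reached a median of 132 bp upstream of the start in the 113 and 840 bp in the other 5053 chosen regions with 1 start, while the downstream medians were 3076 and 2604 bp. In the 365 comparison regions with 1 start, the succinyllysine region covered the start in 105, lay upstream of it in 143, downstream in 96 and on both sides in 21. The 1000 bp limit was set with these data known, the reach is not independent of a choice by gap, and the pattern was not tested.

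The lists held different numbers of genes at this boundary, which were counted and not tested. Of the 8820 genes at chosen regions, 158 (1.79%) had succinyllysine under 1000 bp from their region. Among immediate-early genes it was 7 of 25 (28.0%): Btg2, Id3, Jun, Junb, Klf2, Klf4 and Zfp36l1. Among matrix genes it was 5 of 24, with Col6a1, Col6a2 and Fbln2 among them, among histone genes 6 of 30, and among cytosolic ribosomal proteins 6 of 60. Some of these share a region, as H2bc9 does with H3c7. No such gene was found among succinate dehydrogenase and its assembly factors, the tricarboxylic acid cycle, mitochondrial ribosomal proteins, the proteasome, DNA replication or DNA repair. These lists have 7 to 67 genes at chosen regions, of which the 1.79% share would also give few. Respiratory complex I had 1 of 33, and the complexes III, IV and ATP synthase 2 of 34. At Btg2 the H3K4me3 region (chr1:134076401-134079200) reached 45 bp upstream of the start, and a succinyllysine region of 3800 bp (chr1:134079301-134083100) began 100 bp beyond it. Col6a1, a chain of type VI collagen, had 2600 bp of H3K4me3 directly followed by 7100 bp of succinyllysine with no base between. At Junb a succinyllysine region of 6900 bp ended 200 bp from the H3K4me3 region, and at Rpsa, a ribosomal protein, one of 1300 bp abutted it.

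**Figure D4:**
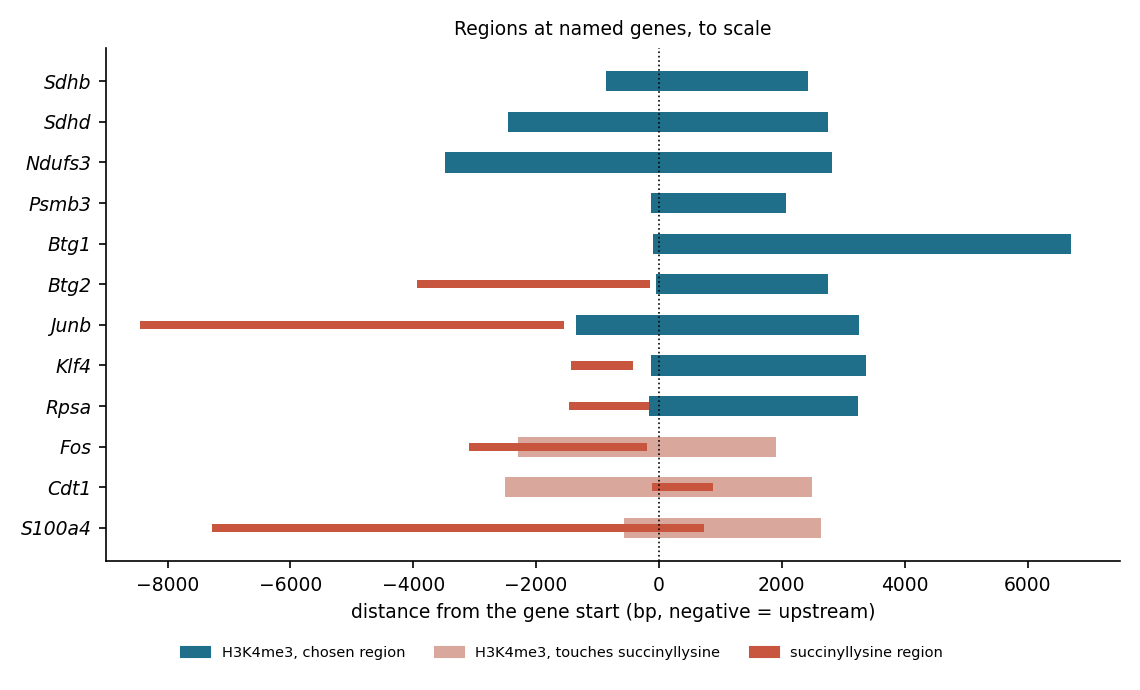
H3K4me3 regions drawn to scale around the start of named genes (in bp, negative upstream), chosen regions in blue and regions that touch succinyllysine in pale red, with the widest succinyllysine region within 1000 bp as a thin red bar. Sdhb, Sdhd, Ndufs3, Psmb3 and Btg1 have none within 1000 bp; at Btg2, Junb, Klf4 and Rpsa succinyllysine lies upstream and stops at or before the edge of H3K4me3, and at Fos, Cdt1 and S100a4 it overlaps.

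Promoters at chosen regions were mostly CpG-rich, as were those at H3K4me3 regions of any kind. Among the 7156 genes with a start in the promoter table, the window had a median GC content of 62.3%, 23 CpG sites and an observed to expected CpG ratio of 0.810. At comparison regions (551 promoters) the medians were 60.3%, 21 and 0.798; over all 17492 promoters they were 56.3%, 14 and 0.587. Windows with a ratio of at least 0.6 and a GC content of at least 50%, called CpG-rich here, made up 79.6% (78.6 to 80.5) at chosen regions, 72.2% (68.3 to 75.9) at comparison regions, 46.4% over the table and 10.7% at genes with no H3K4me3 region. Over promoters at any H3K4me3 region, chosen ones included, the share was 76.2%. It was 79.2% at regions of 7000 bp or more, 57.7% at regions under 2000 bp and 86.25% at same-width regions with H3K27me3 alone. At chosen regions the share went from 72.0% at 2000 to 2900 bp to 86.1% at 6000 to 6900 bp, and was 86.8% at divergent pairs.

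For most motifs the shares of matching promoters at chosen and comparison regions differed by few percentage points, with wide intervals over the 551 comparison windows. The 300-base windows were searched on both strands for the motifs marked above and for YY1 (AAGATGGCG), CRE (TGACGTCA), AP-1 (TGANTCA), E2F (TTTCCCGC), the ZNF143 core (ACTACAAT), TEAD (ACATTCC), the E-box (CACGTG), the CArG box of SRF and TATAAA anywhere. The GC box was present in 71.0% of windows at chosen regions, 67.5% at comparison regions and 46.9% of all windows. ETS matches were in 9.61%, 11.8% and 5.31%, NRF1 in 6.36%, 6.72% and 3.67%, and YY1 in 3.75%, 4.90% and 1.94%. TATAA at its usual place was in 1.27% of windows at chosen regions, 2.18% at comparison regions and 4.56% of all. Windows at any H3K4me3 region, chosen ones included, had 69.9% for the GC box, 8.97% for ETS and 5.94% for NRF1. They had 3.37% for YY1 and 1.60% for TATAA at its place. E-box matches were in 10.5% of windows at chosen regions, 66 of 551 at comparison regions and 7.87% of all. Over the same groups TEAD matches were in 2.05%, 3.09% and 3.30%, the CArG box in 1.12%, 1.82% and 1.54%, and TATAAA in 5.83%, 7.62% and 13.3%. The ZNF143 core was in 1.29% of windows at chosen regions and in 2 of 551 windows at comparison regions (0.363%). Over these windows the intervals of chosen and comparison regions overlapped for each of these motifs.

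Over all windows the intervals of the classes lay apart for the CCAAT box alone among the 14 motif searches. It was present in 40.0% (38.9 to 41.2) of windows at chosen regions and 31.4% (27.5 to 35.5) at comparison regions, beside 39.1% of all windows and 39.2% of those without H3K4me3. Going the other way, CRE matches were in 3.44% (3.03 to 3.89) and 5.44% (3.70 to 7.68), and E2F matches in 2.32% (1.98 to 2.70) and 4.17% (2.66 to 6.20). The intervals of these shares overlapped, but those of the differences did not include 0 (-4.28 to -0.209 points for CRE and -3.91 to -0.298 for E2F). With 1 protein-coding start per region the shares for the CCAAT box were 40.6% and 31.4%, and the intervals also lay apart for ETS, at 8.81% (8.10 to 9.56) and 12.6% (9.67 to 16.0), and for E2F, at 2.33% (1.96 to 2.75) and 4.86% (3.07 to 7.26). AP-1 matches were in 3.84% and 5.26%, both under the 7.06% of all windows. At divergent pairs of chosen regions ETS matches were in 15.3% (13.1 to 17.8) of windows, YY1 matches in 6.17% and TATAA at its place in 0.426%; both windows of a pair often share bases. Some motifs share letters, so the matches of a window are not independent, and a match is a description of letters and not a bound site.

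**Figure D5:**
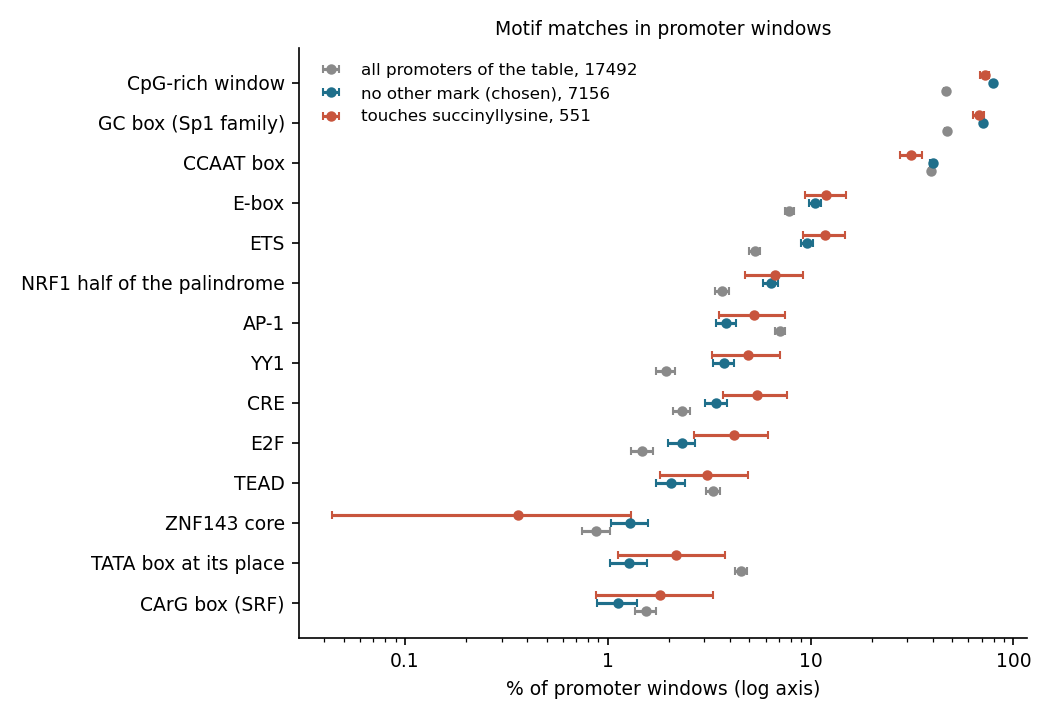
Share of 300-base promoter windows (in %, log axis) that are CpG-rich or hold a match to each motif, for all windows of the table (grey), genes at chosen regions (blue) and genes at same-width regions that touch succinyllysine (red), with exact 95% intervals. Blue and red intervals overlap for each motif shown but the CCAAT box, which stands at 40.0% and 31.4%.

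A small set of chosen regions had no protein-coding start, no stand-in and no lncRNA start. These 831 regions (9.14%, 8.55 to 9.75, against 22.3% of comparison regions) lay inside a gene in 583 cases and between genes in 248, with a median width of 2800 bp. Their median distance to the nearest start or gene end was 3.24 kb, and 70 lay beyond 50000 bp. Of the 248 between genes, the megabases with most were on chromosome 13, in stretches that hold the large histone clusters, with 19 in the one that begins at 21 Mb and 8 in the one at 23 Mb. Of the 19, 17 held a tRNA gene. Over the genome 144 of 408 annotated tRNA genes (35.3%) lay in 89 chosen regions, of which 67 were between protein-coding genes, and 165 lay in no H3K4me3 region. The share of regions with a tRNA gene was 0.978% (0.786 to 1.20) of chosen and 0.614% (0.199 to 1.43) of comparison regions, with intervals that overlapped, and 2.88% of the regions of 7000 bp or more. A region of 2700 bp (chr19:12009701-12012400) held 5 tRNA genes, the most of any chosen region.

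Chosen regions were spread over all autosomes and the X chromosome, with none on Y. Per 100 protein-coding genes they numbered 21.2 on X and 28.5 on chromosome 7, and up to 48.8 on chromosome 15. The comparison regions made up the largest part of both classes on chromosome 7 (12.3%) and the smallest on chromosome 16 (4.63%). Another H3K4me3 region lay within 1000 bp of 26.1% of chosen and 29.6% of comparison regions, and within 5000 bp of 33.7% and 43.2%.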

How the data were processed

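ChIP-seq reads were aligned with Bowtie2 2.2.3 to mm10, per the submitters' processing notes. The peak caller was not given in the sources used here, nor was any pooling of samples. For each antibody the authors deposited a single list, whose values are start and end positions, read as 1-based and inclusive. No read counts or depths were used, so the precision of a call is unknown.

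Overlap meant at least 1 shared base; bedtools 2.31.1 gave the same 9096 members. Genes, starts and promoter windows came from RefSeq tables for GRCm38.p6, in which 17492 of 21887 protein-coding genes have a start. For the others both outer gene ends with 1000 bp on each side stood in. Each gene took the class of the widest H3K4me3 region at its start. The 36 gene lists, the members and the alternatives were chosen with earlier results of these data known. Named genes are the 4 Sdh subunits, the genes at the widest and narrowest chosen region and at the widest succinyllysine region of each list, the 5 genes at the widest chosen regions and those of the 3 regions with most starts. Some genes named by this rule are not reported here. All other genes named, including the printed promoters, were chosen after their values were seen. Shares carry exact Clopper-Pearson 95% intervals computed with scipy 1.17.1, and no test was run, because regions and genes are not replicates. The overlap code was tested on simulated regions with known answers.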

Additional observations from a re-analysis of the deposited data

How the results depend on the processing

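The number of chosen regions lay between 6244 and 10639 over 6 alternatives of width, distance, merging and chromosomes. The share over a start was higher in chosen than in comparison regions by 14.3 percentage points; over 9 alternatives this difference ran from 9.75 (widths of 3000 to 6900 bp, the only one outside the main interval of 11.3 to 17.5) to 16.0. The difference in regions with 2 or more starts, 0.573 points, was 2.68 with all genes of the reference, 2.78 with members reweighted to the widths of the comparison regions, and -0.189, a reversed sign, at widths of 1500 to 8000 bp; its interval (-1.35 to 2.19) includes 0. The difference in divergent pairs, 1.59 points, was 2.96 with all genes, 3.42 after reweighting and at least 0.859 otherwise. Its main interval (0.0105 to 2.84) lay just above 0. The interval included 0 at widths of 1500 to 8000 bp (-0.612 to 2.07) and with autosomes only (-0.0685 to 2.82). Genes of development and other cell types stood 38.1 points under the background, 42.0 points under it (-42.0) at widths of 1500 to 8000 bp, and 27.5 points under it (-27.5) with olfactory receptors left out, an alternative chosen after seeing the data. For those genes the share of either class at a chosen region stood at -2.11 points from the background, and at 1.02 with starts within 1000 bp, over few genes. The median CpG difference was 0.0120 as a ratio and 2 as a count. The cause of these shifts was not tested. The signs of the other list and motif differences were the same under every alternative run.

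No paired analysis was possible because the lists hold no values per sample, and leaving out a replicate could not be run for the same reason. Read depth is unknown, so "without a mark" means without a called region. About 20% of protein-coding genes have no start in the table and rest on outer ends.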
